A study of Mus musculus with 4 samples.

Results

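The 9 genes Dock8, Kank1, Dmrt1, Dmrt3, Dmrt2, Smarca2, Vldlr, Kcnv2 and Rfx3 follow each other in this order on mouse chromosome 19, and they were taken from the 24428 genes of the count tables. The neighbourhood was chosen by the counts of Dmrt1 and Smarca2, because Dmrt1 was much higher and Smarca2 much lower in mutant cells than in wild-type cells. Their own values are therefore a description, given without a test. The other 7 genes were listed for their position, and the question asked of them was whether the 2 changes stop at Dmrt1 and Smarca2 or extend to the genes beside them. RNA-seq was made from untreated mouse embryonic stem cells of strain 129SvEv, grown in serum with LIF. All cells carried a wild-type Smarca4 fused to GFP. In G784E cells a second Smarca4, fused to the V5 tag, carried the G784E change, while in WT cells the V5-tagged Smarca4 was wild-type. Each group had 2 libraries. The labels do not say whether these came from separate cultures or clones, so that a p-value here rests on the spread of these libraries alone, and that spread may be technical.

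Smarca4 and Smarca2 encode the alternative ATPases of the BAF (mammalian SWI/SNF) complex, which moves nucleosomes and opens chromatin at promoters and enhancers. Embryonic stem cells are known to rely on Smarca4, and Smarca2 is better known from differentiated cells. Dmrt1, Dmrt3 and Dmrt2 are a tandem group of DM-domain transcription factors. Dmrt1 acts in the testis and in germ cells, Dmrt3 in spinal interneurons and Dmrt2 in somites. The other genes of the neighbourhood have unrelated roles, so that they are neighbours by place and not by pathway.

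The libraries held 6226145 and 8895433 gene counts in G784E cells and 7027108 and 10083442 in WT cells. Levels are given as CPM, counts per 1000000 gene counts, and a floor of 3 counts stood at 0.298 to 0.482 CPM. Log2 fold changes are G784E over WT, fitted with edgeR on all 15763 genes that passed its filter on low counts, with Benjamini-Hochberg adjusted p-values over all of them and 0.05 as the threshold. Smarca4 itself stood at 3797 and 3417 CPM in G784E cells, against 2611 and 2494 CPM in WT cells, counts in which the alleles cannot be told apart (log2 fold change 0.58, SE 0.19; edgeR, adjusted p = 0.119), and which passed in DESeq2, limma-voom and with total-count or upper-quartile scaling. The 6 stem cell markers, such as Zfp42 and Esrrb, summed to 1343 and 1407 CPM in G784E cells and to 1262 and 1289 CPM in WT cells. Of these 6, 0 passed in edgeR, DESeq2 or limma-voom. At an unadjusted p under 0.05 there was 1, given without the share of all tested genes under that p and read no further. Olfactory receptor genes, taken as a background that belongs to nasal neurons, summed to 685 CPM in G784E replicate 1 and 282 CPM in G784E replicate 2, against 684 CPM in WT replicate 1 and 193 CPM in WT replicate 2, so that replicate 1 of each group carried more of such background.

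The change at Dmrt1 and Smarca2 reversed the order of their levels. Dmrt1 stood at 29.4 and 19.9 CPM in G784E cells, against 2.85 and 3.57 CPM in WT cells. Both G784E libraries lay far above both WT libraries, with a ratio of the group means of 7.68. Smarca2 stood at 8.19 and 7.31 CPM in G784E cells, against 45.0 and 39.8 CPM in WT cells. Here both G784E libraries lay below both WT libraries, and WT held 5.47 times the G784E mean. Within the libraries numbered 1 and those numbered 2, the log2 ratio of Smarca2 was -2.46 and -2.44, whereas that of Dmrt1 was 3.37 and 2.48. In bulk RNA, fewer cells that express a gene and less RNA per cell cannot be told apart.

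**Figure D1:**
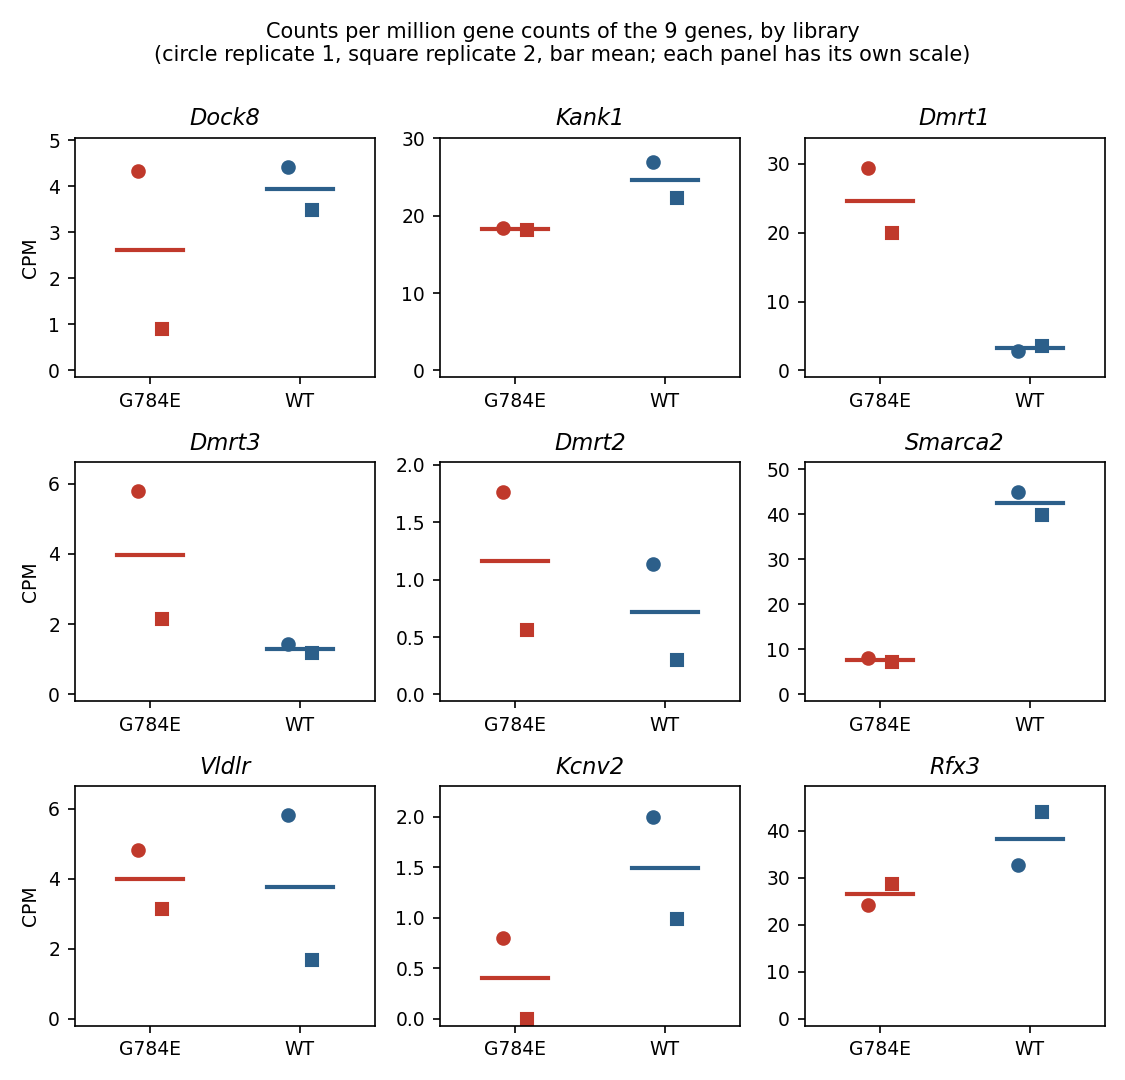
Level of each of the 9 genes in CPM (vertical axis, starting near 0, a separate scale in each panel) in the G784E libraries on the left and the WT libraries on the right; circles are replicate 1, squares replicate 2, and bars the mean of 2 libraries. Dmrt1 and Smarca2 show wide gaps between the groups, Dmrt3, Kank1, Rfx3 and Kcnv2 narrower gaps without overlap, and Dock8, Dmrt2 and Vldlr overlap.

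The genes that flank the 2 changed ones on their inner side are Dmrt3 and Dmrt2. Dmrt3, the direct neighbour of Dmrt1, had 36 and 19 counts in G784E cells, or 5.78 and 2.14 CPM, against 10 and 12 counts in WT cells, or 1.42 and 1.19 CPM. It was higher in both G784E libraries, in the same direction as Dmrt1, but its log2 fold change of 1.66 (SE 0.94) did not pass the test (edgeR, adjusted p = 0.549). The 95% interval ran from -0.27 to 3.59, so that both no change and a rise as large as the value of Dmrt1, 2.99, lay inside it. With G784E replicate 1 left out, the value of Dmrt3 was 0.81. Dmrt2, the next gene, had 11 and 5 counts in G784E cells and 8 and 3 counts in WT cells. At 1.77 and 0.562 CPM in G784E cells, against 1.14 and 0.298 CPM in WT cells, replicate 1 was the higher library in each group and the groups overlapped. Dmrt2 did not pass the filter on low counts. Fitted without the filter, its log2 fold change was 0.75 with an interval from -2.06 to 3.56 (edgeR, adjusted p = 0.998). In the fits with a library left out, which kept the filter and which Dmrt2 then passed, its value ranged from -0.19 without G784E replicate 1 to 1.89 without WT replicate 1.

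Promoter sequences of RefSeq (250 bases before to 50 after a gene's start) were held for 7 of the 9 genes, Dmrt1 and Kcnv2 being the others. Shown are those of Smarca2 and of its upstream neighbours Dmrt2, Dmrt3 and Kank1, the genes between and beside the 2 changed ones, in the reading direction of the gene. Capitals mark matches on either strand to the GC box GGGCGG or to the letters CCAAT of the box so named, the motifs found among those searched on both strands.
Smarca2 (GRCm38.p6 chr19:26604910-26605209, + strand): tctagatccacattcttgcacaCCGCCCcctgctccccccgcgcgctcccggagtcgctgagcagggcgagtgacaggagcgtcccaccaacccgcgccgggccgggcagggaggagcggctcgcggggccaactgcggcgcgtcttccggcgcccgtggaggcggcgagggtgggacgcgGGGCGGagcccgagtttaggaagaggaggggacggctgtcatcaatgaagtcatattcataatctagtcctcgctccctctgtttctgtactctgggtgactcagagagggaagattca
Dmrt2 (GRCm38.p6 chr19:25672161-25672460, + strand): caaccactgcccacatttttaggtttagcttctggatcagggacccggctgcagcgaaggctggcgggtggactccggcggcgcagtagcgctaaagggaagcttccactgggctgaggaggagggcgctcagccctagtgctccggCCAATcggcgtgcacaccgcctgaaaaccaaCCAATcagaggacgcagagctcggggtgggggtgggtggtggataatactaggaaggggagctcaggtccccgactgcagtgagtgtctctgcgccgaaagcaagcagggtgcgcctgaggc
Dmrt3 (GRCm38.p6 chr19:25610287-25610586, + strand): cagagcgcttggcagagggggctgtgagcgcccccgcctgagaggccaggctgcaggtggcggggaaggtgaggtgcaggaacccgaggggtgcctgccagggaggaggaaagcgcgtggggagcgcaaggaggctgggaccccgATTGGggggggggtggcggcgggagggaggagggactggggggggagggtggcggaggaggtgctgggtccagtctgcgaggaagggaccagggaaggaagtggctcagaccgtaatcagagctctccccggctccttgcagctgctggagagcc
Kank1 (GRCm38.p6 chr19:25236725-25237024, + strand): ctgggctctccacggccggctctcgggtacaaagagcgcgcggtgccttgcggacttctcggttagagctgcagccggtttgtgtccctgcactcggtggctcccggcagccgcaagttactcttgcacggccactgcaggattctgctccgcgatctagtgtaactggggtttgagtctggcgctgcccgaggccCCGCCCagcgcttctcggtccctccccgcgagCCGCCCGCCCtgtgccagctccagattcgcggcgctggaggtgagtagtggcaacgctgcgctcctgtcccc
The Smarca2 promoter held 2 GC boxes and that of Kank1 held 3, of which the last 2 overlap, while 35.7% of the 32851 promoters in the RefSeq table held at least 1. The Dmrt3 promoter held 1 CCAAT box and that of Dmrt2 held 2, a motif present in 37.4% of promoters. Smarca2 and Kank1 each had 29 CG dinucleotides in the 300 bases, Dmrt2 had 18 and Dmrt3 15, against a median of 7 over all promoters. None of these 4 windows held the TATA box TATAAA, found in 13.6% of all promoters, or the octamer ATGCAAAT, found in 1.74%. None held ACAATGT, the core of the sites known for DM-domain proteins, found in 2.96% of all promoters. None held AGATAA, a site of GATA factors, found in 11.2%.

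On the outer side of Dmrt1 lie Kank1 and Dock8. Kank1 encodes an adaptor that links cell adhesions to microtubules at the cell cortex. It stood at 18.5 and 18.1 CPM in G784E cells, against 26.9 and 22.3 CPM in WT cells. Both G784E libraries were lower, the opposite direction from its neighbour Dmrt1, and the log2 fold change of -0.34 (SE 0.25) did not pass the test (edgeR, adjusted p = 0.743). Its interval, -0.86 to 0.18, held neither a fold as large as that of Dmrt1 nor one as large as that of Smarca2. Dock8, an activator of the GTPase Cdc42 best known from immune cells, had 27 and 8 counts in G784E cells and 31 and 35 counts in WT cells, or 4.34 and 0.899 CPM against 4.41 and 3.47 CPM. The G784E libraries differed from each other more than the groups did (log2 fold change -0.53, SE 0.83; edgeR, adjusted p = 0.961). The value of Dock8 hung on which of them was kept, at 0.14 without G784E replicate 2 and -2.01 without G784E replicate 1.

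On the other side of Smarca2 lie Vldlr, Kcnv2 and Rfx3. Vldlr, a receptor for reelin and for apolipoprotein E, stood at 4.82 and 3.15 CPM in G784E cells, against 5.83 and 1.69 CPM in WT cells. The G784E values lay within the range of the WT values, with a log2 fold change of 0.21 (SE 0.72; edgeR, adjusted p = 0.999). Its interval ran from -1.29 to 1.70. The sign of Vldlr hung on single libraries, at -0.11 with G784E replicate 1 left out, -0.38 with WT replicate 2 left out and 1.23 with WT replicate 1 left out, and its level per exon length lay within the background of olfactory receptor genes in every library. Kcnv2, a potassium channel subunit that is silent on its own and known from photoreceptors, had 5 and 0 counts in G784E cells and 14 and 10 counts in WT cells. It stood at 0.803 CPM in G784E replicate 1 and below a floor of 0.337 CPM in G784E replicate 2, against 1.99 and 0.992 CPM in WT cells. Both G784E libraries were lower, but Kcnv2 did not pass the filter on low counts. Without the filter its interval ran from -4.84 to 1.02 (edgeR, adjusted p = 0.988), too wide to place it. With a library left out and the filter kept, its value ran from -6.64 to -0.86. The -6.64 came without G784E replicate 1, where the lone G784E library had 0 counts. Without WT replicate 1, Kcnv2 did not pass the filter. Rfx3, a transcription factor of cilia formation, stood at 24.3 and 28.8 CPM in G784E cells, against 32.7 and 44.0 CPM in WT cells. Both G784E libraries were lower in these CPM, which are scaled by total gene counts. The fit, with TMM scaling, gave a 1.38-fold fall, which did not pass the test (log2 fold change -0.46, SE 0.25; edgeR, adjusted p = 0.514). The interval of Rfx3, -0.97 to 0.05, stopped well short of the fall of Smarca2, at -2.37.

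Counted over the 7 neighbours, 5 passed the filter on low counts (Dock8, Kank1, Dmrt3, Vldlr and Rfx3), and 0 were called higher and 0 lower by edgeR. Over all tested genes 0.672% were called higher and 1.89% lower, or 2.56% in either direction. Without the filter, where Dmrt2 and Kcnv2 could be fitted and did not pass, it was 1.78%. At an unadjusted p under 0.05 the count was also 0, given without the share of all tested genes under that p. In limma-voom 0 of the 5 were called, against 186 higher and 364 lower among 15763 genes. DESeq2 called 0 of the 3 to which it gave an adjusted p, Dmrt3 and Dock8 having none. Among the 15763 genes it called 108 higher and 260 lower. Overlap was read in CPM of total gene counts, a scaling with which the median log2 fold change over all tested genes was -0.09. Without overlap between the groups, 1 of the 5 (Dmrt3) was higher and 2 (Kank1 and Rfx3) were lower, where 15.6% of all tested genes were higher and 24.9% lower in this way, or 40.5% in all. Dmrt3, at 10 and 12 counts in WT cells, passed the filter through its higher G784E libraries. Its place in this count is therefore partly set by the filter. The share of the neighbours thus rests on 5 genes and is read no further. A call missed at this depth does not show that a gene did not differ, and the intervals of Dmrt3, Dmrt2 and Kcnv2 leave room for changes as large as those of Dmrt1 or Smarca2.

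**Figure D2:**
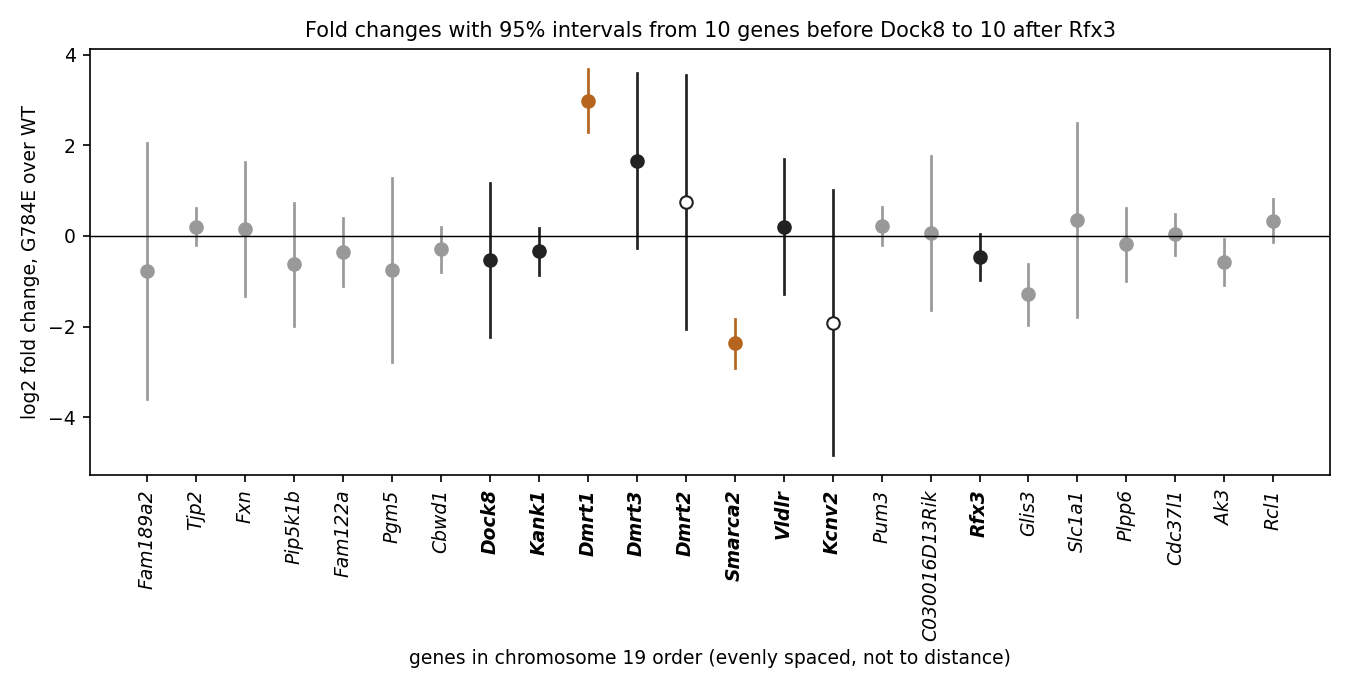
Log2 fold change, G784E over WT (vertical axis), with 95% intervals from edgeR for tested genes in chromosome 19 order; bold names are the 9 genes, brown points Dmrt1 and Smarca2, and open points Dmrt2 and Kcnv2 from the fit without a filter on low counts. Kank1 at -0.34 and Rfx3 at -0.46 have short intervals near 0, while Dmrt3, Dmrt2 and Kcnv2 have wide ones.

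Levels were set per exon length to compare the genes with each other, in counts per kilobase of exon and 1000000 gene counts. In G784E cells Dmrt1 was the highest, at 12.6 and 8.50, followed by Kank1 at 3.28 and 3.21 and Rfx3 at 2.60 and 3.09. Dmrt3, at 2.42 and 0.893, and Smarca2, at 1.12 and 1.00, overlapped each other below these. In WT cells Smarca2 was the highest, at 6.16 and 5.45, followed by Kank1 at 4.77 and 3.96 and Rfx3 at 3.51 and 4.73, which overlapped each other. Dmrt1, at 1.22 and 1.53, came next. Smarca2 thus went with the top of the order in WT cells and Dmrt1 in G784E cells, while Kank1 and Rfx3 kept the places below the top in each.

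The same scale shows which genes stood clear of background. In each library, the 95th percentile of olfactory receptor genes lay at 0.883 and 0.460 per kilobase in G784E cells and at 0.929 and 0.306 in WT cells. Kank1, Dmrt1, Smarca2 and Rfx3 exceeded it in 4 of 4 libraries, and Dmrt3 in 3 of 4, all but WT replicate 1. Dock8 exceeded it in 1 library, WT replicate 2, and Dmrt2, Vldlr and Kcnv2 in 0 of 4. The neighbours that could be read above this background were therefore Kank1 and Rfx3 in both groups and Dmrt3 in G784E cells.

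**Figure D3:**
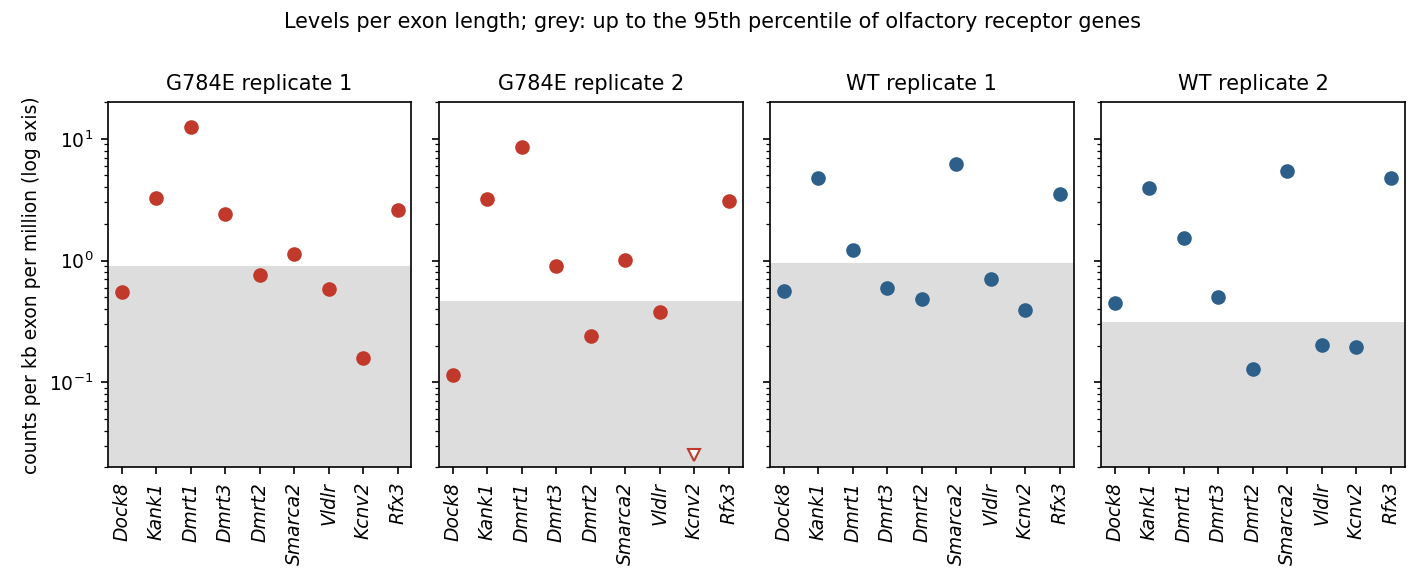
Level of the 9 genes per kilobase of exon and 1000000 gene counts (logarithmic vertical axis) in each library, with G784E libraries left of WT libraries; the grey band reaches up to the 95th percentile of olfactory receptor genes in that library, and the open triangle marks 0 counts of Kcnv2. Dmrt2, Vldlr and Kcnv2 lie in the band in all 4 panels, and Kank1, Dmrt1, Smarca2 and Rfx3 above it.

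The tables held 5 more genes between Dock8 and Rfx3. Pum3, a nucleolar RNA-binding protein and the most abundant transcript of the stretch, stood at 212 and 242 CPM in G784E cells, against 198 and 216 CPM in WT cells. These ranges overlapped, and its narrow interval, -0.20 to 0.63 around a log2 fold change of 0.21 (SE 0.20; edgeR, adjusted p = 0.851), held no change of the size seen at Dmrt1 or Smarca2. C030016D13Rik, a noncoding RNA next to Pum3, gave 0.07 on the log2 scale (SE 0.83; edgeR, adjusted p = 1.0). The noncoding RNA 4931403E22Rik overlaps the end of Smarca2 on the opposite strand. It had 0 and 0 counts in G784E cells and 5 and 3 counts in WT cells, the direction of Smarca2, but reads of overlapping genes cannot be told apart without a known strand setting. Gm815 had 2 and 4 counts in G784E cells and 5 and 3 in WT cells. 2610016A17Rik, beside the start of Dmrt2, had 1 and 0 counts in G784E cells and 2 and 0 in WT cells.

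Beyond both ends, the 10 genes on either side were read in the same fit. Of the 7 tested before Dock8, 0 passed edgeR's test in either direction, with a median log2 fold change of -0.35, against -0.00 over all tested genes. The median was 0.07 over the 7 tested from Dock8 to Rfx3 without Dmrt1 and Smarca2, and -0.08 over the 6 tested after Rfx3. These medians rest on few genes and are read no further. The gene next to Dock8, Mir3084-1, had 0 counts in every library. Cbwd1, the one before it, stood at 23.3 and 25.6 CPM in G784E cells, against 36.4 and 27.8 CPM in WT cells, and its difference did not pass (-0.29 on the log2 scale, SE 0.24; adjusted p = 0.784 in edgeR). Of the 6 tested after Rfx3, 1 fell. This was Glis3, the gene right after Rfx3 and a zinc-finger transcription factor of pancreas and kidney, at 7.07 and 6.30 CPM in G784E cells, against 19.9 and 14.9 CPM in WT cells (log2 fold change -1.29, SE 0.32; edgeR, adjusted p = 0.0278). Glis3 did not pass in edgeR once scaled by the upper quartile (adjusted p = 0.0601) or in DESeq2 (adjusted p = 0.0879). With WT replicate 1 left out its adjusted p in edgeR was 0.518, and with WT replicate 2 left out it was 0.191. D930032P07Rik, which follows Glis3, had 7 and 1 counts in G784E cells and 10 and 3 in WT cells and was not tested. Of the 20 tested genes of the whole stretch other than Dmrt1 and Smarca2, 1 was therefore lower and 0 higher. Over all tested genes 1.89% were called lower and 0.672% higher, and a count of 1 in 20 genes is read no further. At an unadjusted p under 0.05, 2 of the 20 were lower (Glis3 and Ak3) and 0 higher. The share of all tested genes under that p is not given here, so these counts are read no further.

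Along the whole chromosome, 5 of 520 tested genes other than Dmrt1 and Smarca2 were called higher and 13 lower in edgeR, which is 0.962% and 2.5%, or 3.46% in either direction. Apart from Glis3, the nearest called gene before the neighbourhood was Tmem2, 22 genes of the tables ahead of Dmrt1, and the nearest after it was Ankrd1, 80 genes past Smarca2. Between these, with Dmrt1 and Smarca2 set aside as described without a test, Glis3 was the only gene called.

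**Figure D4:**
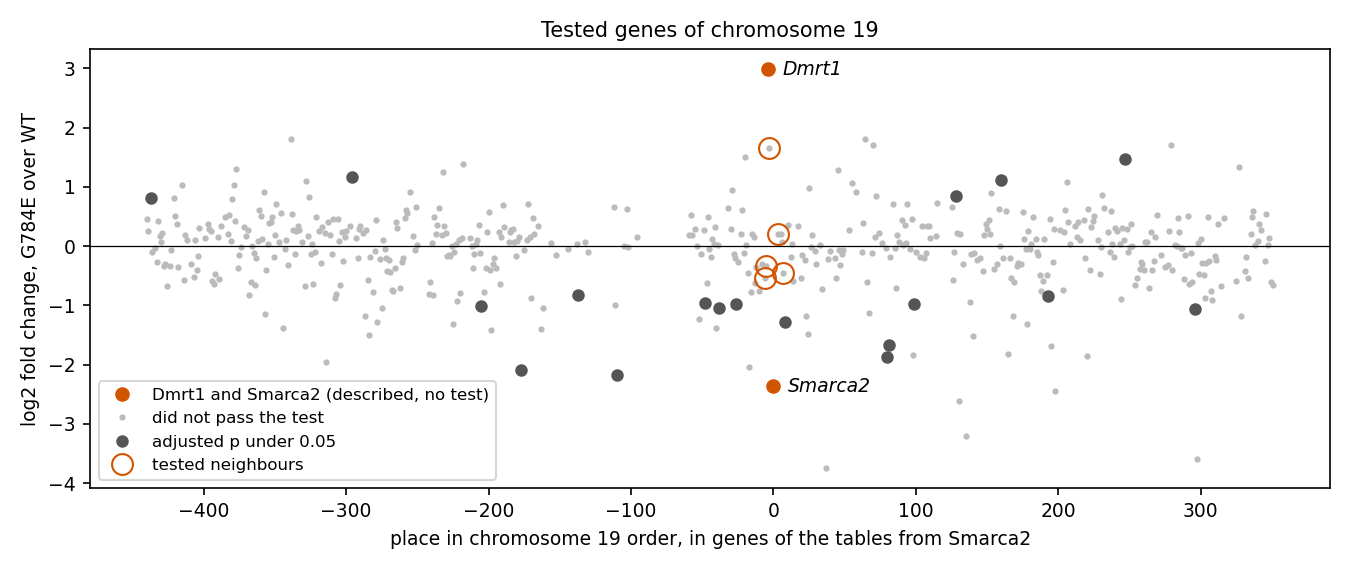
Log2 fold change, G784E over WT (vertical axis), of the tested genes of chromosome 19 against their place in gene order, counted in genes of the tables from Smarca2 (horizontal axis); dark points have an adjusted p under 0.05 in edgeR, open circles are the tested neighbours and filled orange points are Dmrt1 and Smarca2. Called genes lie scattered along the chromosome, and the tested neighbours lie between -0.53 and 1.66.

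Relatives and partners of the 9 genes elsewhere in the genome were read from lists, set beside a median log2 fold change of -0.00 over all tested genes and a share of 0.672% called higher and 1.89% called lower. Of the 8 DM-domain genes, Dmrt1 and Dmrt3 passed the filter on low counts. The other 6, Dmrt2, Dmrta1, Dmrta2, Dmrtb1, Dmrtc1a and Dmrtc2, did not. In the list of gonad and germ cell genes that are studied with Dmrt1, 1 of 16 tested rose and 1 fell in edgeR, with a median of 0.34. Rspo1, a Wnt potentiator of ovary development, rose to 20.6 and 14.1 CPM in G784E cells, against 3.98 and 5.65 CPM in WT cells (log2 fold change 1.89, SE 0.36; edgeR, adjusted p = 0.00237), which did not hold when WT replicate 1 was left out (1.61, edgeR, adjusted p = 0.0636). Gata4, which acts in gonad and endoderm, fell to 7.07 and 3.82 CPM in G784E cells, against 56.2 and 62.6 CPM in WT cells (-3.41, SE 0.29; edgeR, adjusted p = 3.94e-08). The most abundant of the list, Nr0b1 and Kit, had log2 fold changes of -0.04 (SE 0.21) and -0.78 (SE 0.21) and did not pass (edgeR, adjusted p = 1.0 and 0.053). Kit, a receptor of germ and stem cells, lay close to the threshold and passed as lower in 6 of 13 alternatives, among them limma-voom (adjusted p = 0.0138) and total-count scaling in edgeR (adjusted p = 0.0177), over a range of adjusted p from 0.00282 to 0.428. Of 6 tested germ cell markers, with a median of 0.72, Ddx4 rose (1.13, SE 0.24; edgeR, adjusted p = 0.00883), at 32.4 and 37.4 CPM in G784E cells, against 17.1 and 16.8 CPM in WT cells. Without overlap between the groups, 4 of the 6 were higher and 2 lower, where 15.6% of all tested genes were higher and 24.9% lower. Ddx4 no longer passed in edgeR when WT replicate 1 was left out (adjusted p = 0.205), nor when WT replicate 2 was (adjusted p = 0.0832). Prdm1, the next most abundant, had -0.42 (SE 0.27) and did not pass. The 7 germ cell markers summed to 69.9 and 89.5 CPM in G784E cells and to 68.7 and 56.9 CPM in WT cells, with none at 0. Their part in the level of Dmrt1 was not tested.

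For Vldlr, 15 genes of reelin and lipoprotein binding were tested, of which 0 rose and 1 fell, with a median of -0.04. The gene that fell was Lrpap1, a chaperone of receptors of the Vldlr family, at 28.9 and 30.4 CPM in G784E cells, against 109 and 85.0 CPM in WT cells (log2 fold change -1.62, SE 0.21; edgeR, adjusted p = 3.63e-05). Crk and Pafah1b1, the most abundant of the list, had log2 fold changes of -0.08 (SE 0.20) and -0.00 (SE 0.20) and did not pass. For Kank1, 1 of 9 family members and partners fell and 0 rose, with a median of -0.17. This was Kif21a, the kinesin that binds Kank1 (log2 fold change -1.08, SE 0.28; edgeR, adjusted p = 0.034), at 13.7 and 13.6 CPM in G784E cells, against 40.7 and 21.6 CPM in WT cells. Kif21a did not pass in DESeq2 (adjusted p = 0.0914), nor in edgeR once scaled by the upper quartile (adjusted p = 0.0825) or with WT replicate 1 left out (-0.66, adjusted p = 0.97). Kank2 and Erc1 had -0.08 (SE 0.20) and -0.17 (SE 0.20).

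Of the 11 Dock genes tested, 1 rose and 1 fell, with a median of -0.11. Dock3, an activator of the GTPase Rac, rose to 57.7 and 53.3 CPM in G784E cells, against 27.5 and 32.4 CPM in WT cells (log2 fold change 0.96, SE 0.22; edgeR, adjusted p = 0.0163), which did not hold when WT replicate 1 was left out (0.78, edgeR, adjusted p = 0.52). Dock5, also an activator of Rac, fell to 106 and 131 CPM in G784E cells, against 220 and 237 CPM in WT cells (-0.86, SE 0.21; edgeR, adjusted p = 0.0198), which did not hold when G784E replicate 1 (edgeR, adjusted p = 0.177) or WT replicate 2 (edgeR, adjusted p = 0.352) was left out. Of 9 tested genes of the Rfx family and its complex, 0 passed, with a median of 0.42, Rfx7 at 0.42 (SE 0.21) and Rfx2 at 0.24 (SE 0.24). Of 10 cilia genes known to need Rfx factors, 0 passed, with a median of 0.09, Ift172 at 0.47 (SE 0.22) and Bbs4 at 0.34 (SE 0.28). Of 8 tested potassium channel genes related to Kcnv2, 0 passed, with a median of -0.03 and Kcns3 at -0.62 (SE 0.80). The counts of 0 were the same in limma-voom and among the 8, 7 and 1 genes of these lists with an adjusted p in DESeq2. With the replicate block, Rfx7 passed as higher (0.43, edgeR, adjusted p = 0.00984). With G784E replicate 2 left out, 1 gene of the Rfx list, Rfxap, passed as higher. At an unadjusted p under 0.05 in edgeR, 2 Rfx family genes and 1 cilia gene were higher, and 0 of the channel genes differed. The share of all tested genes under that p is not given here, so these counts are read no further.

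Most endoderm markers were lower in G784E cells, the same direction as Smarca2. Of 13 tested markers of primitive and visceral endoderm, 10 fell and 0 rose in edgeR, with a median of -3.41. The 15 markers summed to 309 and 310 CPM in G784E cells, against 3684 and 3663 CPM in WT cells. Amn had 0 counts in G784E replicate 2, and the other 14 had counts in every library. Lama1, the most abundant, stood at 154 and 166 CPM in G784E cells, against 1575 and 1559 CPM in WT cells, and Col4a1 at 61.8 and 54.3 CPM, against 881 and 827 CPM. The other 8 that fell were Gata4, Gata6, Sox17, Sox7, Pdgfra, Dab2, Cubn and Lrp2, of which Sox7 did not pass with total gene count scaling, upper-quartile scaling or the stricter filter. The part of these markers in the value of Smarca2 was not tested. Of the 8 tested fibroblast markers, 0 passed in edgeR or limma-voom, and 0 of the 5 with an adjusted p in DESeq2. At an unadjusted p under 0.05 in edgeR 1 was higher, given without the share of all tested genes under that p and read no further. The fibroblast markers summed to 136 and 107 CPM in G784E cells and to 129 and 88.2 CPM in WT cells, where the lower value was again that of replicate 2. The most abundant, Col1a1 and Fbn1, had log2 fold changes of 0.46 (SE 0.25) and 0.65 (SE 0.27), of which Fbn1 passed with G784E replicate 2 left out.

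Across the 4 libraries, profiles like those of Dmrt1 and Smarca2 were sought among 10283 genes with a mean of at least 5 CPM. Likeness was the distance between log2(CPM + 1) profiles centred on each gene's mean. Dock8, Dmrt3, Dmrt2, Vldlr and Kcnv2 lay below that mean and were not compared. Of the neighbours only Kank1 and Rfx3 could be found, so that the search does not show whether the changes are local. For Smarca2 the 5 nearest were P4ha2, a collagen prolyl hydroxylase subunit (distance 0.0934), Rin3 (0.0978), Clu, the chaperone clusterin (0.122), Ppp1r16b (0.159) and F3, tissue factor (0.171). P4ha2 stood at 6.91 and 6.18 CPM in G784E cells, against 41.6 and 33.8 CPM in WT cells, almost library for library the levels of Smarca2. Clu stood at 22.8 and 19.4 CPM in G784E cells, against 122 and 111 CPM in WT cells. For Dmrt1 the 5 nearest were Inhbb, an activin subunit (distance 0.905), Rragd (0.915), Rspo1 (0.95), Fgf17 (0.955) and the neurofilament gene Nefh (1.0). Fgf17 stood at 29.7 and 15.0 CPM in G784E cells, against 5.27 and 6.64 CPM in WT cells. Dmrt1 had a wider gap between the groups than these 5 genes. Its rise had chosen the neighbourhood, so the size of that gap is a description only. The nearest genes of Dmrt1 were further from it than those of Smarca2 were from Smarca2. The distances are over 4 libraries in 2 groups, and any gene with a like gap between the groups scores as near.

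**Figure D5:**
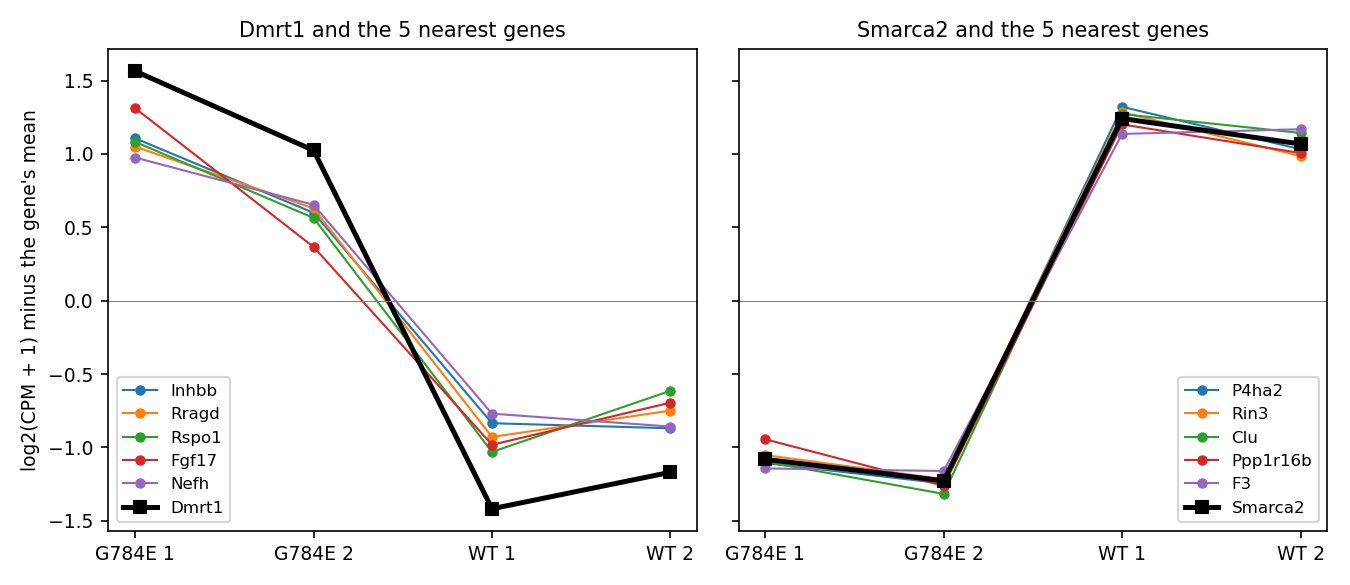
Centred log2(CPM + 1) (vertical axis) of Dmrt1 with its 5 nearest genes and of Smarca2 with its 5 nearest genes in the G784E and WT libraries (horizontal axis); lines join the 4 libraries of a gene. The profiles around Smarca2 nearly coincide, at distances of 0.0934 to 0.171, while those around Dmrt1 have a smaller gap between the groups than Dmrt1 itself.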

How the data were processed

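RNA-seq counts of 4 libraries were used, 2 of G784E and 2 of WT cells, grouped by the labels. The authors deposited whole-number read counts per gene symbol, not normalized. CASAVA 1.8.2, Bowtie2 2.1.0, HTSeq and DESeq2 are named with build mm9, per the submitters' processing notes. For the annotation, the counting mode and the use of strand, the sources used here give nothing. Summary rows (83.3% to 88.7% of reads in the tables, most of them not placed uniquely) were left out of totals and tests, so that a read placed equally well in several copies of a gene was not counted.

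Levels are CPM of total gene counts. Fold changes and p-values came from edgeR 4.0.16 (R 4.3.3), quasi-likelihood test, TMM scaling, filterByExpr (minimum count 10, minimum total 15), group alone with 2 residual degrees of freedom, Benjamini-Hochberg adjusted over 15763 genes. The SE was the log2 fold change divided by the square root of F, and intervals are 95%. Counts at an unadjusted p under 0.05 are given without the share of all tested genes under that p, and are read no further. The fit was also run on simulated counts, drawn for each library independently with the spread that the fit itself had estimated. That run cannot show how the fit behaves where same-numbered libraries vary together. The members and lists were chosen with earlier results of these data known. Named were the 9 genes, all genes between Dock8 and Rfx3, the nearest 2 and any called gene among 10 on either side, and of each list those called and the 2 most abundant. Some genes that this rule names are not reported here. Ak3, Gm815, Tmem2, Ankrd1, Amn, members of short lists and list genes called only under an alternative were named after their values were seen. Gene order came from RefSeq on GRCm38.p6, exon lengths from GENCODE M21 on GRCm38. As these differ from mm9, only the coordinates of the RefSeq promoters are given. The floor of 3 counts covers counting error only, because reads copied by PCR are no separate molecules. Replicates differed beyond sampling noise, with a chi-square per degree of freedom of 15.4 (G784E) and 9.22 (WT). Alternatives were scaling by total counts, by RLE or by the upper quartile, fits with no or a stricter filter, DESeq2 1.42.0, limma-voom (limma 3.58.1), removal of the ribosomal RNA gene Rn45s, a replicate block and each library left out.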

Additional observations from a re-analysis of the deposited data

How the results depend on the processing

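Under all 13 alternatives, 0 of the tested neighbours were called higher and 0 lower. Rfx3, as lower, came under an unadjusted p of 0.05 with total-count scaling, with the replicate block and with G784E replicate 2 or WT replicate 1 left out, and Dmrt3, as higher, with the replicate block. The count of lower genes in the wider stretch, 1 (Glis3), was 0 with upper-quartile scaling and in DESeq2, and 0 to 1 with a library left out. The log2 fold change ran from 2.71 to 3.28 for Dmrt1 and from -2.43 to -2.35 for Smarca2 with a library left out, and from 2.92 to 3.01 and from -2.45 to -2.36 under the other alternatives. With a library left out, Vldlr ran from -0.38 to 1.23 (-0.11 when this was G784E replicate 1), Dock8 from -2.01 to 0.14 and Dmrt2 from -0.19 to 1.89, so that their signs turned, and the cause was not tested. Dmrt3 ran from 0.81 to 2.13 and Rfx3 from -0.72 to -0.11. The labels do not say that replicate numbers pair the libraries. Same-numbered deviations correlated at 0.458 over 15763 genes, and with the replicate block Dmrt3 stood at 1.52 (edgeR, adjusted p = 0.228), Rfx3 at -0.45 (adjusted p = 0.235), and 0 of 5 neighbours were called. The block did bring calls in the lists: Rfx7 (0.43, edgeR, adjusted p = 0.00984), Smarca4 (adjusted p = 1.59e-05), Nanog and Mael as higher, and Kit (adjusted p = 0.00282), Ppfibp1, Foxa2 and Hnf4a as lower. Over all genes, 106 were called higher and 298 lower in edgeR as reported, 546 and 658 with the replicate block, 186 and 364 in limma-voom, 161 and 579 with G784E replicate 2 left out, 26 and 150 with WT replicate 1 left out, and 61 and 154 with WT replicate 2 left out. A fit with a library left out takes the lone one to vary like the other group. The 5 genes nearest to Dmrt1 and the 5 nearest to Smarca2 were shared in full with TMM scaling. Depth limits Dmrt2 and Kcnv2 most, at 14 counts or fewer in each library.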

Other observations

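Dmrta1, a DM-domain relative of Dmrt1 on another chromosome, had 0.161 and 0.112 CPM in G784E cells, against 3.98 CPM in WT replicate 1 and 0 counts in WT replicate 2. A single WT library thus held nearly all of its counts, 28 in number.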
